A study of Homo sapiens with 33 samples.

Results

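The metallothionein genes MT1E, MT1F, MT1G, MT1M, MT1X and MT2A were examined in RNA-seq libraries of cell lines treated or not with palbociclib, an inhibitor of the kinases CDK4 and CDK6. They are the rows with these 6 gene names among the 58302 genes of the deposited matrix. The lines H2052, H2452, H28 and MSTO-211H come from malignant pleural mesothelioma (MPM) and are sensitive to the drug. Palbociclib resistance was represented by MPP89, an MPM line that carries an RB1 mutation, and by MeT-5A, mesothelial cells immortalized with SV40. All cells were grown in the same serum-containing medium, and each line is of a single origin. Treated cultures received 1 µM palbociclib for 9 or 10 days and their controls received 0.1% DMSO for as long. In 1 experiment per sensitive line, the drug was then washed out for 48 hours after 10 days. The 33 libraries comprise 14 DMSO, 14 palbociclib, 4 washout and 1 untreated MeT-5A library. DMSO and palbociclib libraries form 2 pairs in H2052, 3 each in H2452, H28 and MSTO-211H, 2 in MPP89 and 1 in MeT-5A. Values are counts per 20000000 reads (CP20M), which the authors scaled by library size and rounded up to whole numbers, so that 0 stands for no counted read. Of the 6 genes, 4 reached 100 CP20M in at least 1 library and were tested, as were 17803 genes of the matrix.

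Metallothioneins are small cysteine-rich proteins that bind zinc, copper and cadmium. MT2A and the MT1 genes are induced by metals, glucocorticoids and oxidants in many tissues, and the zinc sensor MTF1 activates them by binding short promoter motifs called metal response elements. The genes differ in where and how strongly they are expressed.

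The 6 genes lie within a cluster of 16 metallothionein genes and pseudogenes that covers chr16:56565073-56684196 of GRCh38 (GENCODE 44). MT2A is at chr16:56608584-56609497, MT1E at chr16:56625475-56627112, MT1M at chr16:56632659-56633981, MT1F at chr16:56657731-56660698, MT1G at chr16:56666730-56668065 and MT1X at chr16:56682470-56684196. MT1G is on the minus strand and the other 5 are on the plus strand. The coding sequences of the 4 tested genes are shown because their likeness bears on how reads can be assigned. Each is 186 bases long, and capitals mark the bases that differ from MT2A, of which there are 14 in MT1E, 16 in MT1F and 14 in MT1X.
MT2A: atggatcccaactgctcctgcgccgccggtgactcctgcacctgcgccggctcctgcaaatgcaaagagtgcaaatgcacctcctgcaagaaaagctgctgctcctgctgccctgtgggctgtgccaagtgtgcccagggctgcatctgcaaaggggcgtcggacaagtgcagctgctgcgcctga
MT1E: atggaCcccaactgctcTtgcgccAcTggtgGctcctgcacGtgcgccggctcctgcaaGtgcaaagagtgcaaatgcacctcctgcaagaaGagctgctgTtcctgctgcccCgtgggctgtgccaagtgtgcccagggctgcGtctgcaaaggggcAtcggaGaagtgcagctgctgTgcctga
MT1F: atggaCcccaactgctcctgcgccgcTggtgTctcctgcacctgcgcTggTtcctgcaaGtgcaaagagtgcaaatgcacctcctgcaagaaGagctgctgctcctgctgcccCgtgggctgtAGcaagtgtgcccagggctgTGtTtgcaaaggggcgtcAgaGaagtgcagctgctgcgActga
MT1X: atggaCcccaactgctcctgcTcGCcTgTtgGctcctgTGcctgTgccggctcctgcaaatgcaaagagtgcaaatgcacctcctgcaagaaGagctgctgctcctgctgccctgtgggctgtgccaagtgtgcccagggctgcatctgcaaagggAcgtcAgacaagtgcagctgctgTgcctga

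Between any 2 of the 6 genes, 88.7% to 93.7% of the aligned coding bases were identical. Nevertheless, no window of 97 bases in the transcripts of MT2A, MT1E, MT1F, MT1G or MT1M recurred in a transcript of another gene. The exception was MT1X, where 70 of 308 windows (22.7%) were shared with AC026461.1 (ENSG00000259827), a long noncoding RNA that overlaps MT1X on the same strand. How reads falling in both genes were counted is not given in the sources used here.

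RefSeq promoter sequences (GRCh38.p14) were at hand for MT2A and MT1X among the 6 genes. The 250 bases before each start are shown because they hold the motif through which MTF1 acts, with capitals marking the letters TGCACNC or TGCGCNC, searched on both strands. The first window is chr16:56608334-56608583 and the second is chr16:56682220-56682469, both on the plus strand.
MT2A promoter: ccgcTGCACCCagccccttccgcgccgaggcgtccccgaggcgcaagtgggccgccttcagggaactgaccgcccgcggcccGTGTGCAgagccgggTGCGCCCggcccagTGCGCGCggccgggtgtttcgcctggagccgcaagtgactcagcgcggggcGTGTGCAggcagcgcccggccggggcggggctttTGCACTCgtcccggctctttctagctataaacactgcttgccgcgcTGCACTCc
MT1X promoter: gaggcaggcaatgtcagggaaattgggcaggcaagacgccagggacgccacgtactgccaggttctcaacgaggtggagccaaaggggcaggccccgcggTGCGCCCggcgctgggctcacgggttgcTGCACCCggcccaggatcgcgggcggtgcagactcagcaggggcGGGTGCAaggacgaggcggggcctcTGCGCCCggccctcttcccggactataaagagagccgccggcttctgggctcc

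The MT2A window held the motif at 7 positions and the MT1X window at 4. The windows of genes with next to no reads held it as well, at 8 positions in MT1H, 3 in MT1B and 3 in MT4. Among 35116 promoter windows of the same length, 24.8% held at least 1 position, 0.370% at least 4 and 0.0313% at least 7. In MT1X, the position nearest to the gene ends 47 bases before the start, and in MT2A it ends 2 bases before the start. A match describes these letters only and does not show binding.

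The rest of the family was close to silent. Of 14 other metallothionein genes and pseudogenes, 13 stayed at or below 14 CP20M in all 33 libraries, and MT4 was at 0 throughout. MT1L, a transcribed pseudogene located between MT2A and MT1E, was the exception, with 140 to 263 CP20M in the 5 H2052 libraries, 28 to 42 in MPP89 and at most 11 in H2452. Thus MT1L was above 100 CP20M in H2052, the line with the highest MT1E. Its level was 0.0857 to 0.113 times that of MT1E in H2052 and 0.0421 to 0.0666 times in MPP89.

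**Figure D1:**
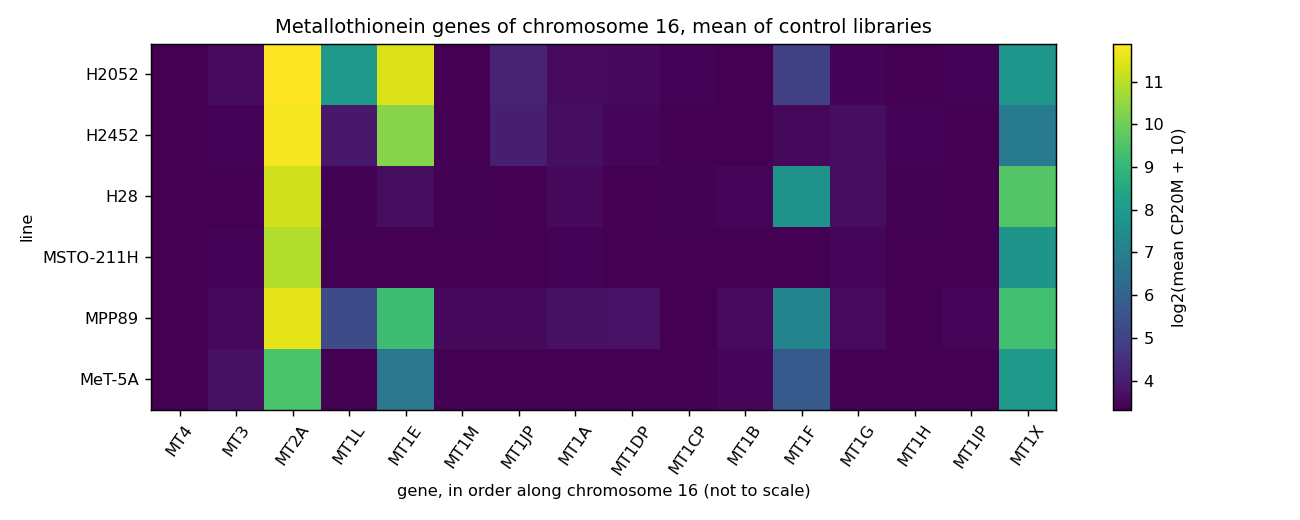
The heatmap shows the mean level of the 16 metallothionein genes of chromosome 16 in the control libraries (DMSO and untreated) of each line, as log2(mean CP20M + 10), with genes in chromosomal order (not to scale) and lines as rows. MT2A and MT1X are above the floor in all 6 lines, MT1E is dark in H28 and MSTO-211H, and MT1F is dark in H2452 and MSTO-211H.

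MT1G and MT1M gave too few reads for a comparison. MT1M was at 0 in 27 of 33 libraries and never exceeded 3 CP20M. MT1G was at 0 in 11 libraries and reached its highest value, 30 CP20M, in H2452 treated with palbociclib. In that line MT1G was at 2, 5 and 0 CP20M in the DMSO libraries, at 14, 8 and 30 in the palbociclib libraries and at 14 after washout. DMSO and palbociclib values thus did not overlap at these low levels. With 3 libraries each, and overlap not counted over all genes, this describes the listed values only. A read was worth up to 1.57 CP20M in the 23 libraries whose depth could be estimated, and no test was made.

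MT2A, the main ubiquitous isoform, was the most abundant member per kilobase of transcript in every line. Its control level per kilobase was 9373 CP20M in H2052, 8559 in H2452, 7340 in MPP89, 6071 in H28, 4751 in MSTO-211H and 1709 in MeT-5A. MT1E followed in H2052 with 3927 CP20M per kilobase and in H2452 with 1791, whereas MT1X followed in H28 with 1873, in MPP89 with 1516, in MeT-5A with 585 and in MSTO-211H with 502. The lengths are those of a single chosen transcript per gene, with 401 bases for MT2A, 704 for MT1E and 404 for MT1X. All annotated exons together cover 1052 bases in MT1E and 1727 in MT1X. In MPP89, where the means were 585 CP20M for MT1E and 612.5 for MT1X, their order per kilobase depends on the length used. The set of MT1 genes in use thus differed between lines while MT2A stayed on top.

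In DMSO libraries MT2A was at 3607 and 3910 CP20M in H2052, at 3400, 3490 and 3406 in H2452, and at 2617 and 3270 in MPP89. It was at 2758, 1147 and 3399 CP20M in H28 and at 2145, 2505 and 1066 in MSTO-211H. MeT-5A had 1007 CP20M in its DMSO library and 364 in its untreated library. MeT-5A was lowest, and H28 overlapped MPP89 and MSTO-211H, with low libraries in H28 and MSTO-211H. The values of H2052 and H2452 overlapped no other line, though the highest of H28, 3399, was next to the lowest of H2452, 3400.

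MT1E was a gene of some lines only. It was at 2459 and 3070 CP20M in the DMSO libraries of H2052, at 1213, 1301 and 1268 in H2452 and at 505 and 665 in MPP89. MeT-5A had 151 CP20M with DMSO and 40 untreated. By contrast, MT1E was at 0, 0 and 7 CP20M in H28 and was at 0 in all 3 DMSO libraries of MSTO-211H. The ranges of H2052, H2452, MPP89 and MeT-5A did not overlap one another.

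MT1F had another order. H28 was highest with 232, 169 and 205 CP20M in its DMSO libraries, followed by MPP89 with 109 and 165. MeT-5A had 54 CP20M with DMSO and 34 untreated, and H2052 had 17 and 24. MT1F was at 0, 2 and 2 CP20M in H2452 and at 0 in the 3 DMSO libraries of MSTO-211H. Hence H28 had MT1F with MT1E at 7 CP20M or less, H2452 had MT1E with MT1F at 2 or less, and MSTO-211H had no counted read of either gene with DMSO.

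MT1X was detected in all 33 libraries. Its DMSO values were 860, 273 and 1137 CP20M in H28, 480 and 745 in MPP89, and 307, 254 and 48 in MSTO-211H. They were 215 and 212 CP20M in H2052 and 82, 116 and 119 in H2452, and MeT-5A had 346 with DMSO and 127 untreated. An H28 library, at 273, was below both MPP89 libraries and the other 2 H28 libraries were above them, and H2452 was lowest but for the MSTO-211H library at 48.

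Levels among the 6 lines were compared in the 15 control libraries with limma on log2(CP20M + 10), with Benjamini-Hochberg adjustment over all tested genes. The 4 tested members differed among lines (adjusted p = 3.01e-10 for MT1E, 1.13e-09 for MT1F, 0.00925 for MT1X and 0.00167 for MT2A), as did 96.3% of all genes, which leaves nothing particular to this family. Of the 15 pairs of lines, 14 differed by over 1.5-fold at a false discovery rate (FDR) under 0.05 for MT1E, 13 for MT1F, 5 for MT2A and 4 for MT1X, where 39.4% to 55.2% of all genes passed per pair. The pair that did not differ for MT1E was H28 and MSTO-211H. For MT2A, the 5 pairs were those with MeT-5A, such as MSTO-211H, its neighbour in the order, which was higher than MeT-5A by 1.55 ± 0.46 (log2, SE, adjusted p = 0.0106). With DMSO libraries only, which leaves out the untreated MeT-5A library, this difference was 0.82 ± 0.51 (adjusted p = 0.200), that of H28 was 1.13 ± 0.51 (adjusted p = 0.0852), and 3 of the 5 pairs passed. No other neighbours in the order of MT2A passed.

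Resistant and sensitive lines were set against each other on line means. MT2A was lower by 1.00 (log2) in the 2 resistant lines than in the 4 sensitive ones (exact permutation test, two-sided, p = 0.267), and MT1E, MT1F and MT1X were higher by 0.69 (exact p = 0.8), 1.59 (exact p = 0.4) and 0.67 (exact p = 0.667). With 15 choices of 2 lines among 6, the smallest p is 0.0667, and the design cannot pass 0.05. With DMSO libraries only, the differences were -0.63 for MT2A (exact p = 0.4), 1.11 for MT1E (exact p = 0.733), 1.72 for MT1F (exact p = 0.4) and 1.01 for MT1X (exact p = 0.333). The direction for MT1E turned to -0.10 with a pseudocount of 50.

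**Figure D2:**
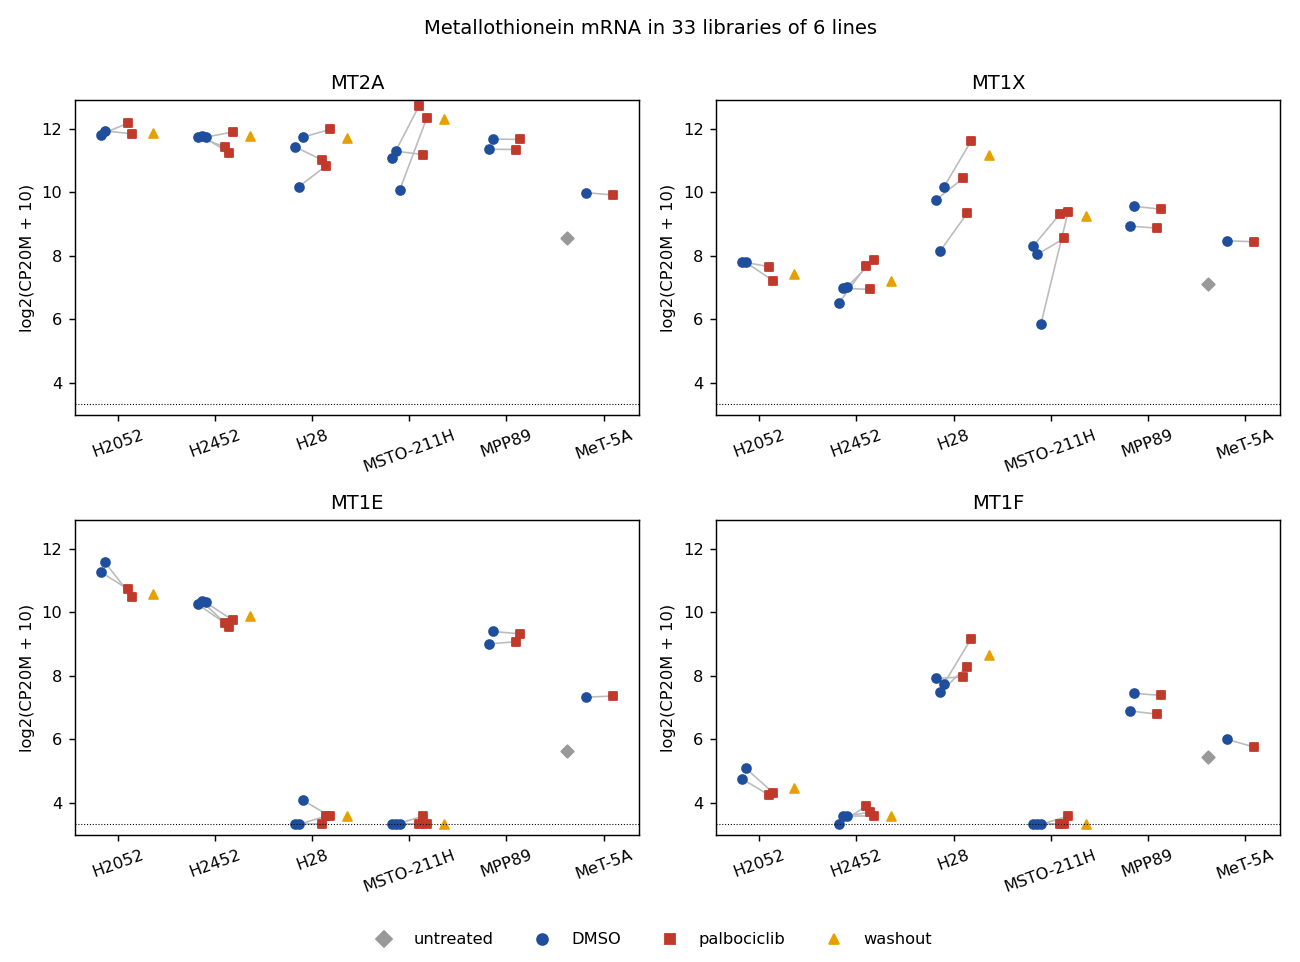
Each panel shows 1 gene as log2(CP20M + 10) in the 33 libraries, grouped by line on the x axis, with symbols for untreated, DMSO, palbociclib and washout libraries, grey lines joining the DMSO and palbociclib libraries of an experiment and a dotted line at 0 CP20M. MT2A is high in all lines, MT1E sits on the floor or near it in H28 and MSTO-211H, and MT1X rises along all 6 grey lines of H28 and MSTO-211H.

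The libraries are bulk RNA, in which fewer cells of a type and less RNA per cell cannot be told apart. The proliferation gene MKI67 served as a check of the treatment and was lower in all 11 pairs of sensitive lines (log2 change -3.10, SE 0.35, adjusted p = 1.74e-05), with changes of -0.01 to 0.15 in the 3 resistant pairs. Of 8 mesothelial markers, 3 to 6 averaged at least 100 CP20M in the controls of a line. Of 4 leukocyte genes, CD68 averaged 147 to 1159 CP20M in the controls of every line while CD3E was at 0 in all control and palbociclib libraries, and 3 endothelial and 4 lung epithelial genes had no member that averaged 100. Among 3 fibroblast genes, PDGFRA averaged 881 CP20M in H2052 and 805 in MPP89, DCN 1946 in MeT-5A, and LUM 1373.5 in MPP89 and 286 in MeT-5A. MSLN was at 1 to 9 CP20M in H28, and WT1 at 0 to 2 in MeT-5A. The part of these levels in the metallothionein values was not tested.

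In the 4 sensitive lines, the tested members did not all change in the same direction with palbociclib. Whether the response differed among these lines is taken up below. MT1X rose over the 11 pairs, MT1E was lower in all 5 pairs of the lines that express it, and MT2A and MT1F did not pass the test. A gene was called differentially expressed (DE) when its fold change exceeded 1.5 in either direction with an FDR under 0.05, with the experiment as a block. By this rule 1 of the 4 tested members was called up and none down, where 5.58% of all genes were called up and 9.37% down.

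MT1X was the member called. In H28 its values of 860, 273 and 1137 CP20M with DMSO became 1385, 638 and 3123 with palbociclib. In MSTO-211H 307, 254 and 48 became 634, 365 and 658. In H2452 82, 116 and 119 became 196, 113 and 225, and in H2052 215 and 212 became 192 and 139. MT1X was therefore higher in 8 of 11 pairs, including all 6 of H28 and MSTO-211H, and lower in both pairs of H2052 and in 1 of H2452. DMSO and palbociclib values did not overlap in MSTO-211H or, in the other direction, in H2052, whereas they overlapped in H28 and H2452. With 2 or 3 libraries per condition, and overlap not counted over all genes, such statements describe the listed values only, here and for the genes below.

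Over the 11 pairs, the change of MT1X was 0.88 ± 0.28 (log2, SE, adjusted p = 0.0208), beside a median of -0.11 over all genes. Median-of-ratios scaling moved that median to 0.06 and the split of called genes from 994 up and 1669 down to 1759 up and 920 down, and MT1X stayed called. It stayed between 0.61 and 1.02 when each pair was left out in turn. The call was lost with line means as units and without the filter on low values. It was also lost over the 5 pairs of H2052 and H2452, a fit chosen after seeing the data, at 0.25 ± 0.27 (adjusted p = 0.479). By line, the change was 1.11 ± 0.17 in H28 (adjusted p = 0.0325), 1.68 ± 0.67 in MSTO-211H (adjusted p = 0.149, and 0.76 without the pair whose DMSO library was at 48 CP20M), 0.66 ± 0.28 in H2452 (adjusted p = 0.139) and -0.37 ± 0.19 in H2052 (adjusted p = 0.222). Only the H28 change was called, where 13.2% of all genes were, and it missed the threshold without the block and without any of the 3 pairs. Mitochondrial transcripts took a larger share with palbociclib in all 11 pairs, with 0.844% to 1.16% of the DMSO libraries and 1.63% to 2.37% of the palbociclib libraries in H28, 0.580% to 0.839% and 0.693% to 1.61% in MSTO-211H, 0.393% to 0.712% and 0.634% to 1.98% in H2452, and 0.374% to 0.465% and 0.403% to 0.613% in H2052. Their part in the MT1X values was not tested.

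AC026461.1, which overlaps MT1X, followed it in every library. Its level was 0.727 to 0.898 times that of MT1X over the 33 libraries, with a median of 0.805. It was at 751, 223 and 915 CP20M in the DMSO libraries of H28 and at 1213, 505 and 2506 with palbociclib, and its change over the 11 pairs was 0.88 ± 0.29 (adjusted p = 0.0224). Since these transcripts share sequence on the same strand, reads in the shared stretch cannot be told apart here, and the 2 genes do not count as separate observations.

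**Figure D3:**
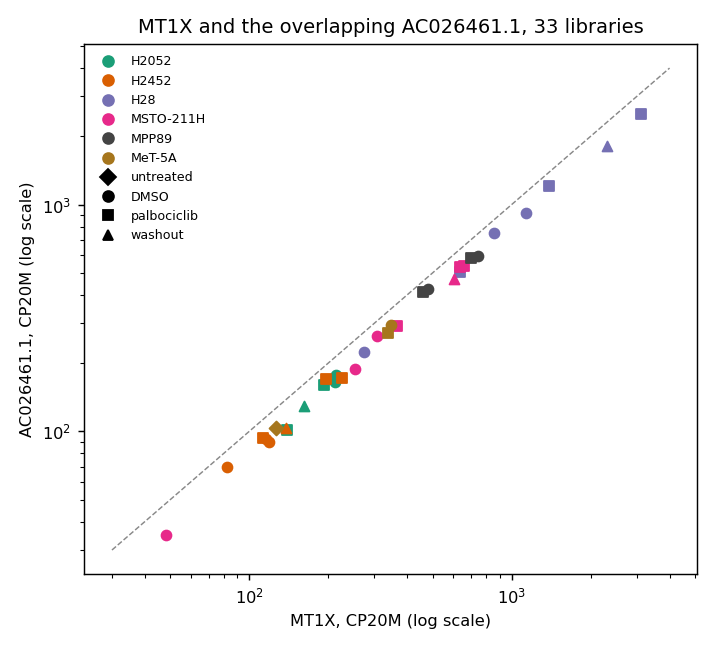
The plot sets the CP20M of AC026461.1 (y axis, log scale) against that of MT1X (x axis, log scale) in the 33 libraries, with colours for lines, symbols for conditions and a dashed line of equal values. All points lie close below the line, from 0.727 to 0.898 times MT1X.

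MT1E fell in H2452. Its DMSO values of 1213, 1301 and 1268 CP20M became 799, 739 and 852 with palbociclib, and those of H2052 went from 2459 and 3070 to 1694 and 1435. The conditions did not overlap in either line. The change was -0.66 ± 0.07 in H2452 (adjusted p = 0.0158), which was called where 16.8% of all genes were. It was -0.81 ± 0.17 in H2052 (adjusted p = 0.0575), which missed the threshold where 17.6% of all genes passed. The H2452 call was lost when any of its 3 pairs was left out, and with median-of-ratios scaling, where the change was -0.46 (adjusted p = 0.0288), under the fold of 1.5.

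MT1E had next to no reads in H28, with 0, 2 and 2 CP20M with palbociclib, or in MSTO-211H, with 0, 2 and 0. Over all 11 pairs its change of -0.33 ± 0.13 therefore averages 5 lower pairs with 6 near the floor (adjusted p = 0.0595). Over the 5 pairs of H2052 and H2452, a fit chosen after seeing the data, the change was -0.72 ± 0.09 (adjusted p = 0.00231), where 12.7% of all genes were called down. MT1L was lower in the same 5 pairs, with a change of -0.18 ± 0.11 over the 11 pairs (adjusted p = 0.168). It went from 217 and 263 CP20M to 192 and 140 in H2052. In H2452 it was near the floor, at 5, 6 and 4 CP20M with DMSO and 3, 0 and 2 with palbociclib.

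MT2A did not pass the test in any sensitive line. In MSTO-211H 2145, 2505 and 1066 CP20M with DMSO became 6772, 2327 and 5215 with palbociclib, and in H28 2758, 1147 and 3399 became 2069, 1812 and 4030. In H2052 3607 and 3910 became 4630 and 3668, and in H2452 3400, 3490 and 3406 became 2761, 2431 and 3810. The conditions overlapped in all 4 lines, with 6 pairs higher and 5 lower. The change was 0.36 ± 0.23 over the 11 pairs (adjusted p = 0.215), and the value furthest from 0 in a single line was 1.28 ± 0.51 in MSTO-211H (adjusted p = 0.150, and 0.77 without the third pair), where 13.8% of all genes were called and no member was.

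MT1F was higher in all 3 pairs of H28 and lower in both pairs of H2052. In H28, 232, 169 and 205 CP20M with DMSO became 241, 303 and 564 with palbociclib, and in H2052 17 and 24 became 9 and 10. The conditions did not overlap in either line, and the other sensitive lines stayed at or below 5 CP20M. MT1F was called down in H2052 (-0.64 ± 0.12, adjusted p = 0.0499) at a level near the floor. It was at or below 24 CP20M in that line and passed the filter on low values through other lines. The call was lost in all 3 alternatives that tested it, which include a pseudocount of 1 and median-of-ratios scaling. The change in H28 was 0.76 ± 0.29 (adjusted p = 0.137), and over the 11 pairs it was 0.18 ± 0.17 (adjusted p = 0.399).

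**Figure D4:**
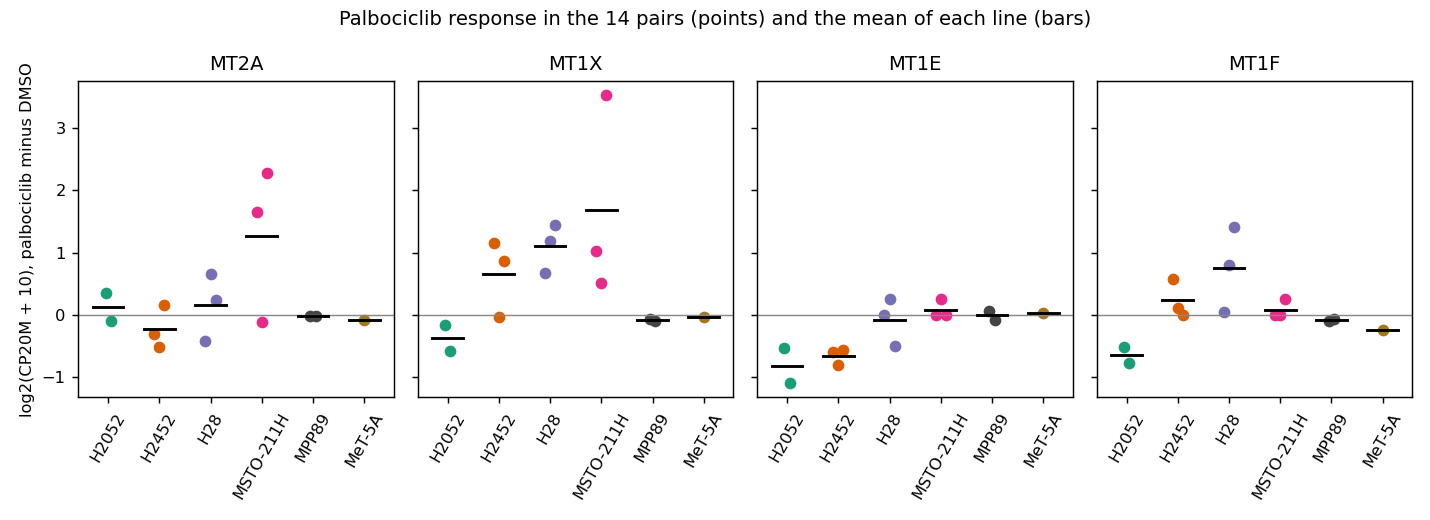
Each panel shows 1 gene, with a point for each of the 14 pairs at its palbociclib minus DMSO difference of log2(CP20M + 10), grouped by line on the x axis, and a black bar at the mean of the line. MT1X points of H28 and MSTO-211H lie at 0.51 to 3.53, MT1E points of H2052 and H2452 lie at -1.09 to -0.54, and all points of MPP89 and MeT-5A lie close to 0.

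Whether the response differed among the 4 sensitive lines was asked with an F test. It passed for MT1E (F = 5.60, adjusted p = 0.0399) and MT1F (F = 5.42, adjusted p = 0.0431), whereas MT1X (F = 3.05, adjusted p = 0.131) and MT2A (F = 3.47, adjusted p = 0.105) missed the threshold. That is 2 of 4 members, against 37.1% of all genes. Both genes passed the filter on low values through other lines, since MT1E was at 7 CP20M or less in H28 and MSTO-211H, and MT1F at 5 or less in H2452 and MSTO-211H, so these lines could show next to no response and the F test does not separate response from expression. Between the lines that express the gene, a comparison chosen after seeing the data, the response differed by 0.16 ± 0.18 for MT1E (H2452 minus H2052, adjusted p = 0.606, with 9.01% of all genes called) and by 1.39 ± 0.41 for MT1F (H28 minus H2052, adjusted p = 0.0687, with 13.1% called). Both F test calls were lost without the block, with a pseudocount of 1, without the filter on low values and with either other scaling.

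In the resistant lines the members did not pass any test. In MPP89, MT1E was at 505 and 665 CP20M with DMSO and at 530 and 631 with palbociclib, MT1X at 480 and 745 and at 459 and 699, and MT2A at 2617 and 3270 and at 2599 and 3239. In MeT-5A, MT1E was at 151 and 155 CP20M, MT1F at 54 and 44, MT1X at 346 and 338 and MT2A at 1007 and 957. Paired values were thus close while the experiments differed from each other. The changes over the 3 pairs lay between -0.14 and 0.01, and limma called 0 members and 0% of all genes, with 1258 genes at an unadjusted p under 0.05. The difference in response between sensitive and resistant lines was 0.94 ± 0.57 for MT1X (adjusted p = 0.307) and was called for none of the 4, against 9.37% of all genes.

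The regulators and zinc transporters around the family were examined as lists, whose counts stand beside 5.58% of all genes called up and 9.37% called down over the 11 pairs. MTF1, the zinc sensor that activates metallothionein genes, and SLC30A1, a zinc exporter that is also its target, were both called up in H28, where 13.2% of all genes were called in either direction. SLC30A1 went from 1867, 2123 and 1768 CP20M with DMSO to 3081, 3509 and 3065 with palbociclib in H28 (0.74 ± 0.06, adjusted p = 0.0266). MTF1 went from 927, 947 and 1044 to 1440, 1225 and 1989 (0.64 ± 0.13, adjusted p = 0.0432). In MSTO-211H, SLC30A1 went from 1229, 1017 and 485 CP20M to 1734, 2000 and 2279 (1.22 ± 0.37, adjusted p = 0.0923). The conditions did not overlap in these 3 cases. They did not overlap for SLC30A1 in H2052 either, with 1648 to 1694 CP20M with DMSO and 1718 to 2001 with palbociclib. The same held for MTF1 in H2052 (381 to 472 and 485 to 491) and in MSTO-211H (455 to 518 and 540 to 603). The mean change of MTF1 in MSTO-211H was 0.25. In H2052 and H2452 the changes were 0.15 ± 0.10 and 0.06 ± 0.09 for SLC30A1, and 0.20 ± 0.14 and 0.08 ± 0.06 for MTF1. Both H28 calls were lost when any of the 3 pairs was left out, and that of MTF1 also without the block. Over the 11 pairs, neither reached the fold of 1.5, at 0.58 ± 0.17 for SLC30A1 (adjusted p = 0.013) and 0.30 ± 0.08 for MTF1 (adjusted p = 0.00876), and both were higher in 10 pairs.

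Among zinc exporters, 1 of 8 tested genes was called up and 1 down over the 11 pairs, with a list median of 0.18 beside -0.11 for all genes. SLC30A4, which loads zinc into vesicles, rose by 0.64 ± 0.08 and was higher in 11 of 11 pairs, and SLC30A3, another vesicular exporter, changed by -0.85 ± 0.19. Among 12 zinc importers, 1 was called up and none down (median 0.19). It was SLC39A8, a zinc and manganese importer, with a change of 1.08 ± 0.29. Its mean change was 2.01 in H2052 and 2.22 in MSTO-211H, but 0.31 in H28 and 0.11 in H2452.

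Of 8 copper genes, 1 was called up and none down (median 0.23), namely the copper-exporting ATPase ATP7B (0.96 ± 0.11, higher in 11 of 11 pairs). Of 7 glucocorticoid response genes, 2 were called up and 1 down (median -0.06). FKBP5, a classical glucocorticoid target, was lower in 11 of 11 pairs (-1.35 ± 0.16, adjusted p = 1.94e-05), whereas the kinase gene SGK1 (0.76 ± 0.28) and the phosphatase gene DUSP1 (0.61 ± 0.15) rose.

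None of 9 tested heat shock genes was called over the 11 pairs (median 0.13). Of 7 oxidative stress genes, 1 was called up and none down (median -0.23), and it was the heme oxygenase gene HMOX1 (0.74 ± 0.22, adjusted p = 0.0138). Of 36 other genes within 500 kb of the cluster, 14 were tested. AC026461.1 was called up, and 3 were called down, namely NUDT21, which encodes a pre-mRNA cleavage factor (-0.88 ± 0.07), CPNE2, which encodes a calcium-binding copine (-0.66 ± 0.07), and AC009090.4 (-0.78 ± 0.12).

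Washout was followed in 4 experiments with 1 library per line and condition. Washout is compared with the palbociclib and DMSO libraries of the same experiments, so these comparisons share libraries. MKI67 was higher after washout than with palbociclib (2.99 ± 0.55, adjusted p = 0.0348). No member was called, while 1.40% of all genes were.

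MT1X went from 1137 CP20M with DMSO to 3123 with palbociclib and 2317 after washout in H28. In MSTO-211H it went from 48 to 658 and 605, in H2452 from 119 to 225 and 138, and in H2052 from 212 to 139 and 162. In H28, MSTO-211H and H2052 the washout value was nearer to palbociclib than to DMSO, and in H2452 it was nearer to DMSO. The change was -0.25 ± 0.56 from palbociclib to washout (adjusted p = 0.915) and 1.06 ± 0.56 from DMSO to washout (adjusted p = 0.234), where 5.76% of all genes were called and no member was. The latter was 0.28 without MSTO-211H, whose DMSO library was at 48 CP20M. Mitochondrial transcripts took 3.80% of the H28 washout library; their part was not tested.

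MT1E went from 3070 CP20M with DMSO to 1435 with palbociclib and 1509 after washout in H2052, and from 1268 to 852 and 930 in H2452. Washout libraries thus stayed below DMSO in both lines. Over all the washout experiments, the change from palbociclib to washout was 0.05 ± 0.18 (adjusted p = 0.957). From DMSO to washout it was -0.49 ± 0.18 (adjusted p = 0.106). These averages include H28 and MSTO-211H, where MT1E was at 7 CP20M or less. A fit of only H2052 and H2452 was chosen after seeing the data. There the changes were 0.10 ± 0.17 (adjusted p = 0.846) and -0.73 ± 0.17 (adjusted p = 0.192), in the same order.

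MT2A in MSTO-211H went from 1066 CP20M with DMSO to 5215 and, after washout, 5119, whereas in the other lines the 3 values lay between 3323 and 4030. MT1F in H28 went from 205 to 564 and 395. The palbociclib change in these 4 experiments was 1.32 ± 0.56 for MT1X (adjusted p = 0.0968) and -0.54 ± 0.18 for MT1E (adjusted p = 0.0449, under the fold of 1.5), so that no member was called where 18.6% of all genes were. Without H2052, MT1X was called at 1.95, and without MSTO-211H it was at 0.58 (adjusted p = 0.266). MT1E was called at -0.72 without MSTO-211H and was at -0.36 without H2052 (adjusted p = 0.209).

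**Figure D5:**
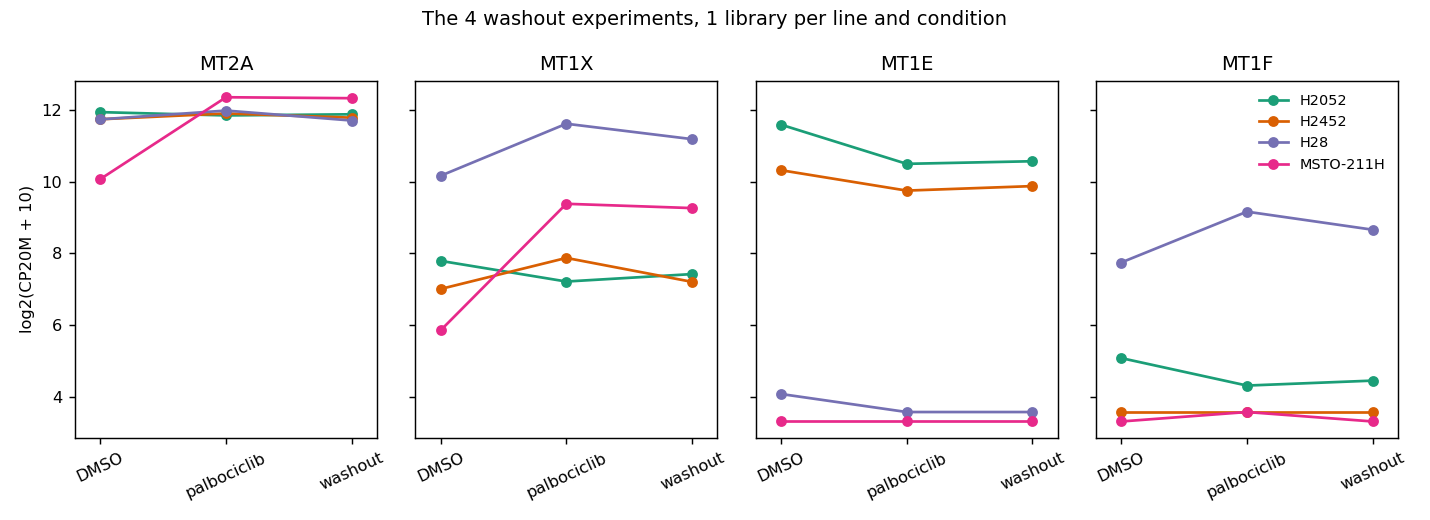
Each panel shows 1 gene as log2(CP20M + 10) in the DMSO, palbociclib and washout libraries (x axis) of the 4 washout experiments, 1 coloured line per cell line. Washout values are nearer to palbociclib than to DMSO for MT1X in H28, MSTO-211H and H2052, and for MT1E in H2052 and H2452.

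Genes outside the family were ranked by Pearson r with the mean log2(CP20M + 10) of the 4 tested members over the 33 libraries. The ranking is a description, since libraries share lines and experiments. The highest were MPP1 (0.873), RTL8B (0.870), ARSD-AS1 (0.865), LGALS1 (0.862) and SORCS2 (0.847). The members themselves had a lower r with that mean, at 0.595 for MT1E, 0.522 for MT1F, 0.401 for MT2A and 0.343 for MT1X. Likeness to the mean is therefore not likeness to any single member. After subtracting the mean of each line, the first was AC026461.1 (0.928), which shares sequence with MT1X, followed by EHD3 (0.754), RAB10 (0.749), SHC1 (0.746) and SQOR (0.744). On that scale MT1X (0.938) and MT2A (0.902) were nearer to the mean of the members than MT1F (0.672) and MT1E (0.522), which are themselves part of it.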

How the data were processed

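Total RNA was made into directional libraries and sequenced as paired-end reads. Per the labels and methods, the authors used Trimmomatic 0.36, mapped reads with STAR 2.5.3 to GRCh38 with Ensembl release 90 and counted genes with HTSeq 0.9.1. The deposited score is CP20M rounded up to whole numbers and is not a count, so the authors' DESeq2 model was not used here. Column totals were 20007662 to 20021400. Low whole numbers that never occur gave depths of 12750000 to 19740000 reads for 23 libraries, and the depth of the other 10 is unknown.

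Genes that reached 100 CP20M in any library were kept. Values were fitted as log2(CP20M + 10), a scale that understates changes of low genes, with limma 3.58.1 (trend) in R 4.3.3. The experiment was the block, as in the study's paired model. Deviations of same-numbered DMSO and palbociclib libraries correlated at r = 0.18 to 0.78 across genes. For the washout fits the line was the block. Fits ran over all genes, and the functions were tested on simulated data. Alternatives were other pseudocounts, scalings and filters, no block, line means and leaving out replicates or lines. Fits of fewer lines, level differences from MeT-5A without its untreated library and repeats of the MTF1 and SLC30A1 fits in H28 were added after seeing the data.

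The members and lists were chosen with earlier results of these data known. Named genes are the 6 members, the other metallothionein genes, up to 4 called genes per list and direction, MKI67 and the 5 most similar genes in each ranking. Replicate libraries shared at most 4.33% of values. Figures were drawn with matplotlib 3.10.9.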

Additional observations from a re-analysis of the deposited data

Results flagged for a closer look

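The F test of the palbociclib response among the 4 sensitive lines passed for MT1E (limma F test, F = 5.60, adjusted p = 0.0399), which was lower in 5 of 5 pairs of H2052 and H2452. It was near 0 CP20M in both conditions of H28 and MSTO-211H, where a fall could not have been measured, and the response did not differ past the threshold between H2052 and H2452 (adjusted p = 0.606). The same test passed for MT1F (F = 5.42, adjusted p = 0.0431), with 3 of 3 pairs higher in H28 and 2 of 2 lower in H2052, where it was at 9 to 24 CP20M. MT1F was at 5 CP20M or less in the other 2 lines, and between H28 and H2052 the difference missed the threshold (adjusted p = 0.0687). Both tests thus rest in part on lines without expression. The adjusted p ranged from 0.0066 to 0.342 for MT1E and from 0.0128 to 0.195 for MT1F over the 17 alternatives that keep all 4 lines. No group had the 4 libraries needed to look for a library apart from its group.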

How the results depend on the processing

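The MT1X call over the 11 pairs became 0 called members without the filter (genes at 0 in all libraries left out) and when line means were the units, and it stayed 1 without any single pair. With only H2052 and H2452, a fit chosen after seeing the data, MT1E was called and MT1X was not. In H2052 the 1 call, that of MT1F, became 0 with a pseudocount of 1 and with median-of-ratios scaling. There MT1F was not called in any of the 3 alternatives that tested it, whereas MT1E, uncalled in the main fit, was called in 2 of 4. In H2452 the count became 0 with median-of-ratios scaling, and leave-one-out gave 0 to 0 in H2452 and in H28. Without the replicate block, the count became 0 in H28 and 0 for the F test among lines, and it stayed 1 over the 11 pairs. The F test among lines gave 2 called members, and 0 with a pseudocount of 1, no filter, upper-quartile or median-of-ratios scaling, 1 with a pseudocount of 50 and 0 to 2 when a pair was left out. Palbociclib in the washout experiments gave 1 called member with a pseudocount of 1, and 0 to 1 when a line was left out.

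Reversed directions were all of uncalled values. For MT1E they were 0.057 in H28 with a pseudocount of 1, -0.014 in the resistant lines and -0.037 from palbociclib to washout with median-of-ratios scaling, -0.014 for the latter with upper-quartile scaling, and -0.10 for resistant minus sensitive level with a pseudocount of 50. For MT1F, washout against DMSO was -0.00014 with a pseudocount of 1. In a fit of only H2052 and H2452, chosen after seeing the data, MT1F turned to -0.11 over the sensitive pairs, 0.069 for washout against palbociclib, -0.31 for washout against DMSO and -0.38 for palbociclib in the washout experiments. There MT2A turned to -0.078 over the sensitive pairs and -0.0078 for washout against DMSO, and MT1X to -0.085 for the latter. Leave-one-out ranges that crossed 0 were -0.25 to 0.13 for MT1E and -0.084 to 0.45 for MT2A in H28, -0.020 to 0.052 for MT1E in the resistant lines (-0.0031 without MeT-5A), -0.21 to 0.30 for MT1F and -0.016 to 0.755 for MT2A in washout against DMSO, and -0.17 to 0.56 for MT1F under palbociclib in the washout experiments. The cause of these changes was not tested. Scaling moved the median of all genes over the 11 pairs from -0.11 to 0.06. Depth limits MT1G, MT1M and MT1F in H2052.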
